A study of Mus musculus with 5 samples.

Results

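The genes described are regulators of secretory cell fate in the mouse intestine: Atoh1 (also called Math1), Gfi1, Neurog3, Neurod1, Hes1, Dll1 and Dll4, which act early, and Spdef, Foxa3 and Creb3l1, which act late in goblet cells. They were chosen by symbol from a count table of 19198 genes, and 9 of the 10 symbols were matched. Neurog3 was not analysed here. RNA was sequenced from the small intestine of 5 mice, 1 library per mouse, all carrying floxed (fl/fl) mAChR4, the gene Chrm4 of the M4 muscarinic acetylcholine receptor. The Cre-negative group, called controls below, held 3 mice without Cre. The Cre-positive group held 2 littermates with the transgene Math1Cre*PR, in which Cre recombinase is fused to a progesterone receptor domain and is switched on by the ligand RU486 in cells that express Math1. Both groups received RU486 by gavage at 10 mg/kg on each of 4 days. The presence of Math1Cre*PR, the activation of Cre and the loss of Chrm4 cannot be told apart, for Atoh1 (Math1) as for other genes. No Cre-positive mouse without floxed Chrm4 was among the samples, and no age is given for the mice.

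Dividing cells of the intestinal crypt choose between an absorptive and a secretory fate through Notch signalling. A cell that receives the ligands Dll1 or Dll4 turns on the repressor Hes1, which holds down Atoh1, and becomes an absorptive enterocyte. A cell that escapes this signal keeps Atoh1 and becomes a goblet, Paneth or enteroendocrine cell, with Gfi1 acting after Atoh1, Neurog3 and Neurod1 leading to enteroendocrine cells, and Spdef, Foxa3 and Creb3l1 serving the maturing goblet cell.

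The libraries held 4681119 to 6618204 estimated counts, and they differed in the tissue they represented within each group. Epithelial markers (12 of 12 matched, none at 0) summed to 3533 to 3911 CPM (counts scaled to the size of the library) in the Cre-negative and 3740 to 4765 CPM in the Cre-positive libraries. Smooth muscle markers (10 of 10 matched, none at 0, all 10 with a negative log2 fold change) summed to 2280, 1080 and 735 CPM in controls 1, 2 and 3 and to 710 and 751 CPM in Cre-positive 1 and 2. Leukocyte markers (14 of 14 matched, 9 tested and all 9 highest in Cre-positive 1) summed to 590 CPM in Cre-positive 1 and to 47.6 to 80.5 CPM in the other libraries, and their zeros included Cd79a and Coro1a, each at 0 in at least 1 library. Gata4, a transcription factor gene of the duodenum and jejunum that is silent in the distal ileum, stood at 24.7, 19.8 and 47.4 CPM in the control libraries and at 0.387 and 39.9 CPM in Cre-positive 1 and 2. Slc10a2, the ileal bile acid transporter gene, stood at 218, 376, 6.52, 810 and 45.9 CPM in the same order. Cre-positive 1 therefore had the lowest Gata4, the highest Slc10a2 and the most leukocyte RNA, and control 1 had the most muscle RNA. Control 1 also had the fewest counts and the highest share of mitochondrial counts, 23.8% against 17.3% to 21.2% in the other libraries. The part of these differences in the results below was not tested. In whole tissue, fewer cells of a type and less RNA per cell cannot be told apart. The labels name separate mice but no batch. Chrm4 itself had 4, 20 and 4 counts in controls 1, 2 and 3 against 13 and 5 in Cre-positive 1 and 2. The floxed part of the gene is not stated, so these counts do not check the genotype labels.

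**Figure D1:**
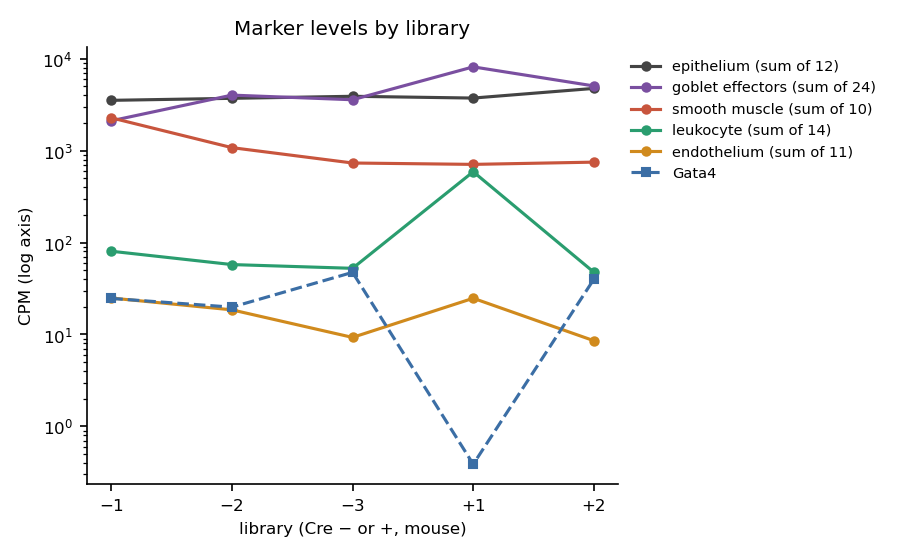
Summed CPM of marker lists and the CPM of Gata4 in each library (log axis, lines only join the libraries; − Cre-negative, + Cre-positive, with the mouse number; controls are Cre-negative). Leukocyte markers reached 590 CPM in Cre-positive 1, where Gata4 stood at 0.387 CPM.

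None of the fate regulators passed the test between the genotypes. Atoh1, Spdef, Foxa3 and Creb3l1 had log2 fold changes (Cre-positive over Cre-negative) between 1.0 and 1.42, while Hes1, Dll1 and Dll4 lay between -0.11 and -0.04. With edgeR's quasi-likelihood test and Benjamini-Hochberg adjustment over 14352 genes, 0 of the 7 regulators tested were called at an adjusted p of 0.05, and 0.0% of all genes tested were called. At an unadjusted p under 0.05 there were 0 of 7 regulators, against 3.38% of all genes. DESeq2 called 0 of the 7 and 0.132% of all genes, and limma-voom called 0 of the 7 and 0.0%. Gfi1 and Spdef did not pass the filter on low counts, and their fold changes were taken from a fit that kept every gene. The groups did not overlap for 1 of the 9 regulators, Spdef, which was higher in Cre-positive mice. Among the 7 regulators tested, which leave out Spdef, there were 0 without overlap. Of the genes tested, 7.89% were higher without overlap and 18.0% had no overlap in either direction. Of the 9 regulators, 6 were highest in Cre-positive 1 (Atoh1, Gfi1, Neurod1, Spdef, Foxa3 and Creb3l1), and 6 were lowest in control 1 (Atoh1, Gfi1, Neurod1, Hes1, Spdef and Foxa3). Among the 7 tested regulators these were 4 and 4, while over all genes tested 25.3% were highest in Cre-positive 1 and 21.8% were lowest in control 1.

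**Figure D2:**
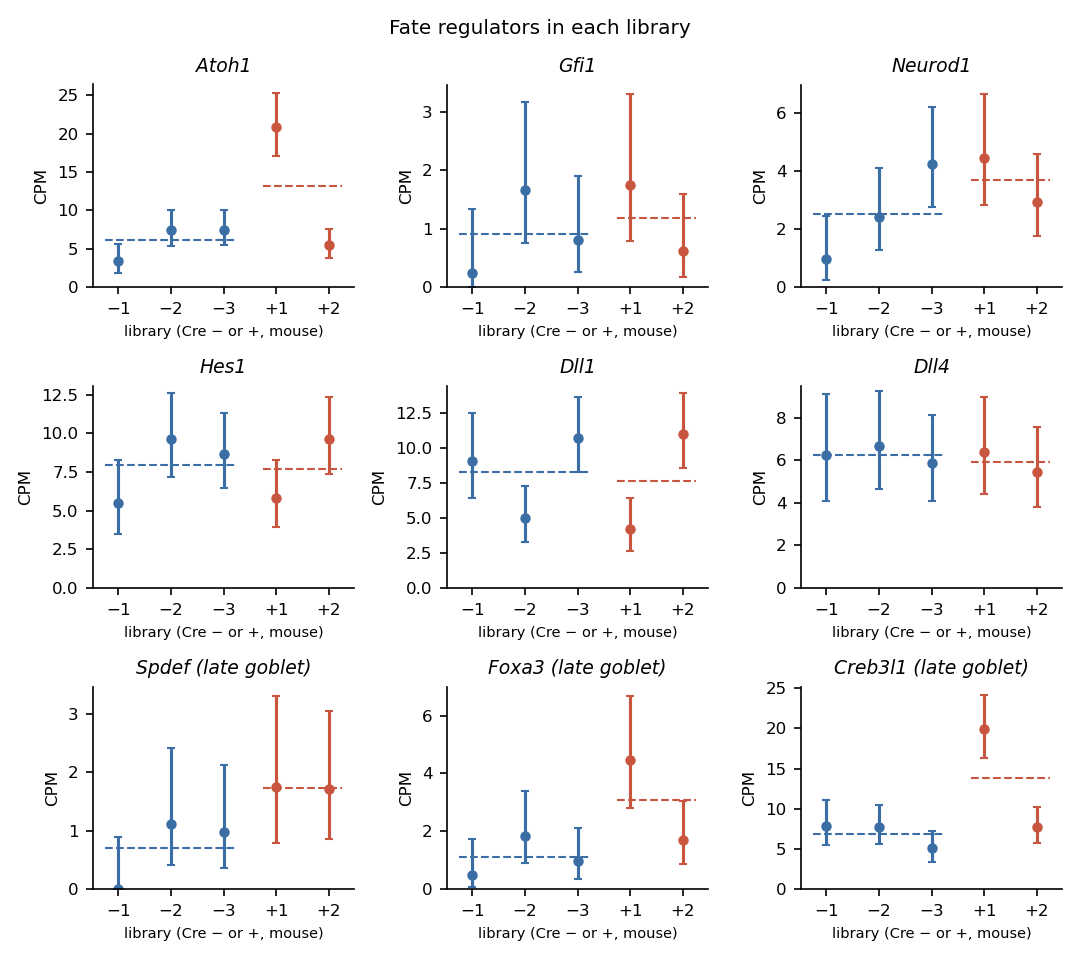
CPM of the 9 regulators in each library (blue, Cre-negative; red, Cre-positive), with exact Poisson 95% intervals for counting error and group means as dashed lines. Atoh1, Foxa3 and Creb3l1 had their peak in Cre-positive 1, and Dll4 differed little between libraries.

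Atoh1, the transcription factor that commits a crypt cell to the secretory lineage, was high in 1 of the 2 Cre-positive mice. It had 14, 40 and 46 counts in controls 1, 2 and 3, or 3.35, 7.41 and 7.49 CPM. It had 108 counts in Cre-positive 1, or 20.9 CPM (exact Poisson 95% interval 17.1 to 25.2), and 35 in Cre-positive 2, or 5.44 CPM (3.79 to 7.57). Such intervals hold the error of counting alone. Cre-positive 1 lay above every other library and Cre-positive 2 lay within the control range, so the groups overlapped. The means were 6.09 ± 2.37 CPM (SD, n = 3) in the controls and 13.2 ± 10.9 CPM (SD, n = 2) in the Cre-positive ones. The fold change of 2.12 had a 95% interval of 0.787 to 5.72 (log2 fold change 1.09 ± 0.60, SE; edgeR adjusted p = 0.977). It was -0.15 on the log2 scale without Cre-positive 1 and 1.79 without Cre-positive 2. Set against the epithelial markers, Atoh1 had 0.950, 2.0 and 1.92 counts per 1000 marker counts in the control libraries and 5.59 and 1.14 in Cre-positive 1 and 2. Within the epithelial fraction, too, Cre-positive 1 stood highest and control 1 lowest.

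The gene of Atoh1 is a single exon on chromosome 6 (64729125 to 64731245, plus strand, GRCm38). The promoters of Atoh1, Foxa3 and Spdef are shown because these genes had the highest log2 fold changes among the regulators with a matched window. Each window runs from 250 bases before to 50 bases after the RefSeq start (GRCm38.p6), at chr6:64728875-64729174 on the plus strand for Atoh1, chr7:19023490-19023789 on the minus strand for Foxa3 and chr17:27728902-27729201 on the minus strand for Spdef. Capitals mark the motifs found on either strand among the N-box CACNAG, which Hes repressors bind, the E-box CANNTG, which Atoh1 and related factors bind, and TGGGAA, the core of the site of Rbpj, the DNA-binding partner of Notch.
Atoh1: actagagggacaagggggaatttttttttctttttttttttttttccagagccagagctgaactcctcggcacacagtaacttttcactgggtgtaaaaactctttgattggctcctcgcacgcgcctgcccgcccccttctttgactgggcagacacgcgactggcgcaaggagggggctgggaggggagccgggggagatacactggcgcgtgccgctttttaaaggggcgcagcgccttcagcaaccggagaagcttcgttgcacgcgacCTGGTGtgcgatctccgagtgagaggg
Foxa3: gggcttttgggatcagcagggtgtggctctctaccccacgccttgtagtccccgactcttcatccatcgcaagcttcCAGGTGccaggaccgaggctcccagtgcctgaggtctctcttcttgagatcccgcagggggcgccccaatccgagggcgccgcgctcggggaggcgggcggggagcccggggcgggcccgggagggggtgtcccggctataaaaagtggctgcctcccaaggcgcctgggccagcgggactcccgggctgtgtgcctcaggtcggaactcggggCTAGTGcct
Spdef: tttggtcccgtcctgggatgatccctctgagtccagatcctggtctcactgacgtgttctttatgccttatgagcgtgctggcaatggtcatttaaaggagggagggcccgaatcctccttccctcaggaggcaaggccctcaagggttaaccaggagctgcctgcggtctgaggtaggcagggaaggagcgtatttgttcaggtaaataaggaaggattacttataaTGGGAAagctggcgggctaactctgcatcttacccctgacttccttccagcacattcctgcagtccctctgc
The Atoh1 window held an N-box match on the minus strand at position 24 after the start. The Foxa3 window held an E-box at -173 and an N-box on the minus strand at 42, and the Spdef window held TGGGAA at -22, and no matches overlapped. Of 32851 promoter windows of this length, 42.5% held an N-box, 72.3% an E-box and 25.6% TGGGAA. Promoter windows were matched for 8 of the 10 regulators, with 10 windows in all, of which 5 held an N-box, 7 an E-box and 1 TGGGAA. These matches describe letters in the reference genome and were not measured as bound.

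Gfi1, a zinc finger repressor that acts after Atoh1 in goblet and Paneth precursors and is also expressed by blood cells, was close to the detection limit. It had 1, 9 and 5 counts in the control libraries and 9 and 4 in Cre-positive 1 and 2, or 0.240, 1.67, 0.815, 1.74 and 0.622 CPM. The groups overlapped, and the log2 fold change of 0.35 ± 0.90 (SE) was -0.54 with Cre-positive 1 left out and -0.06 with control 1 left out. A difference was not detectable at this depth. Gfi1 exons on chromosome 5 overlap A430072P03Rik on the opposite strand and the strand setting of the counting is unknown, so their reads cannot be separated.

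Neurod1, a factor that drives enteroendocrine differentiation after Neurog3, had 4, 13 and 26 counts in controls 1, 2 and 3 and 23 and 19 in Cre-positive 1 and 2. These were 0.958, 2.41 and 4.24 CPM against 4.45 and 2.95 CPM. Both Cre-positive mice lay above 2 of the 3 control mice, and control 3 lay between them. The log2 fold change was 0.50 ± 0.61 (edgeR adjusted p = 0.977), and it was 1.12 without control 3 and 0.16 without control 1. Neurod1 exons overlap those of Cerkl on the same strand, so some reads may belong to either gene, although its deposited counts were whole in every library. Of 20 other enteroendocrine transcription factor genes listed, 11 were matched and 5 were tested, and 0 passed in either direction. Their median log2 fold change was 0.13, against -0.04 over all genes tested. Insm1, which acts beside Neurod1, had 0, 3 and 6 counts in the controls and 0 and 2 in Cre-positive libraries, and Pax6 had 3, 8 and 9 against 5 and 2. Isl1 had 1, 4 and 8 counts against 10 and 5. Rfx6 averaged 1.86 ± 1.0 CPM (SD, n = 3) in the controls and 1.63 ± 0.114 CPM (SD, n = 2) in the Cre-positive ones. Sox4 averaged 18.1 ± 5.76 and 19.8 ± 6.22 CPM. Runx1t1, the list's most negative member and named after its values were seen, stood at 8.39, 5.19 and 4.40 CPM in the controls and 2.52 and 2.64 CPM in Cre-positive libraries, without overlap (log2 fold change -1.19 ± 0.45; edgeR adjusted p = 0.977). The hormone and granin markers (14 of 15 matched, Gip at 0 in at least 1 library) summed to 32.6 to 45.0 CPM in the controls and to 102 and 48.2 CPM in Cre-positive 1 and 2.

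Dll1 and Dll4, the Notch ligands that secretory and crypt base cells present to their neighbours, did not pass the test, and they differed in how much they varied between mice. Dll4 had 26, 36 and 36 counts in the controls and 33 and 35 in Cre-positive libraries, or 6.23, 6.67, 5.87, 6.39 and 5.44 CPM. Its highest library was 1.23 times its lowest, and the fold change of 0.944 had a 95% interval of 0.556 to 1.60 (edgeR adjusted p = 0.982). Dll4 is also an endothelial gene, and 11 of 12 endothelial markers summed to 24.9, 18.5 and 9.29 CPM in the controls and 24.8 and 8.55 CPM in Cre-positive libraries, with Cdh5 at 0 in at least 1 of them. Dll1 had 38, 27 and 66 counts in the controls and 22 and 71 in Cre-positive libraries. Cre-positive 1 was the lowest of all libraries at 4.26 CPM and Cre-positive 2 the highest at 11.0 CPM, with controls 1, 2 and 3 between them at 9.11, 5.0 and 10.8 CPM. The 2 Cre-positive mice thus lay on opposite ends, and the log2 fold change of -0.11 ± 0.51 (edgeR adjusted p = 0.985) was 0.45 with Cre-positive 1 left out and -0.92 with Cre-positive 2 left out. Control 2 and Cre-positive 1, the libraries with the lowest Dll1, also had the lowest Gata4 and the highest Slc10a2. A link between them was not tested, and Slc10a2 was picked once its values had been seen. Exons of Dll1 and Dll4 overlap A930024N18Rik and Gm14207 on the opposite strand.

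Hes1, the Notch target that represses Atoh1, had 23, 52 and 53 counts in controls 1, 2 and 3 and 30 and 62 in Cre-positive 1 and 2. These were 5.51, 9.64 and 8.63 CPM against 5.81 and 9.64 CPM. Each group held low and high libraries, with means of 7.93 ± 2.15 (SD, n = 3) and 7.72 ± 2.71 CPM (SD, n = 2). The fold change of 0.973 had a 95% interval of 0.516 to 1.84 (edgeR adjusted p = 0.993), which does not show that the groups were alike. The log2 fold change ran from -0.42 to 0.30 as single mice were left out. Control 1 had the lowest Hes1 at 5.51 CPM and also the lowest Atoh1 at 3.35 CPM. In Cre-positive 1 a low Hes1 and the lowest Dll1 stood beside the highest Atoh1. Atoh1 made up 78.3% of the summed Atoh1 and Hes1 counts in that library (108 of 138, Clopper-Pearson 95% interval 70.4% to 84.8%). It made up 37.8% (22.5% to 55.2%), 43.5% (33.2% to 54.2%) and 46.5% (36.4% to 56.8%) in controls 1, 2 and 3 and 36.1% (26.6% to 46.5%) in Cre-positive 2. The balance of the pair therefore set Cre-positive 1 apart from the other 4 libraries beyond counting error, and did not separate the genotypes.

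**Figure D3:**
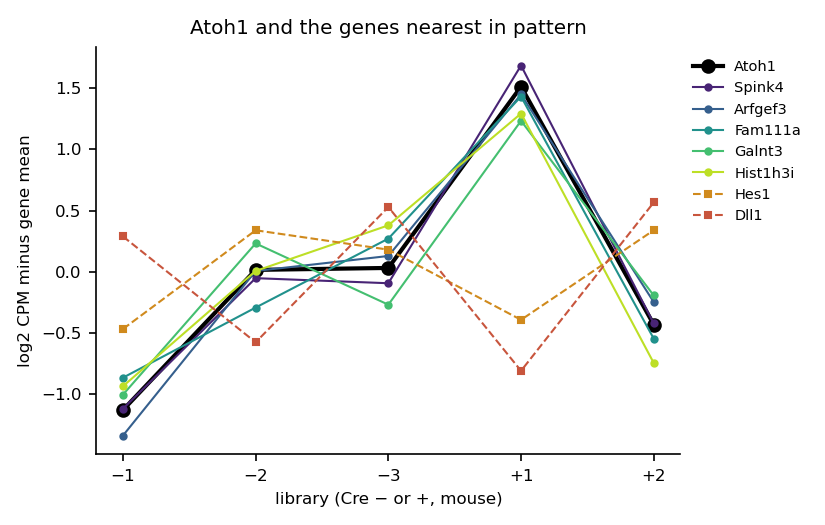
Log2 CPM minus the gene's mean over the 5 libraries for Atoh1, its 5 nearest genes, Hes1 and Dll1 (lines only join the libraries, which have no order). Spink4 followed Atoh1 most closely, while Dll1 was lowest where Atoh1 was highest.

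Spdef, Foxa3 and Creb3l1, the regulators of the maturing goblet cell, each averaged higher in Cre-positive mice, and none passed the test. Spdef, an ETS factor needed for goblet and Paneth cell maturation, had 0, 6 and 6 counts in controls 1, 2 and 3 against 9 and 11 in Cre-positive 1 and 2. The count of 0 allows up to 0.719 CPM as a limit of 3 counts and up to 0.884 CPM by the exact Poisson 95% interval, and the other libraries stood at 1.11, 0.978, 1.74 and 1.71 CPM. The groups did not overlap, but the counting intervals did: 0.359 to 2.13 CPM in control 3 and 0.854 to 3.06 CPM in Cre-positive 2. The log2 fold change was 1.24 ± 0.92 (SE) and was 0.74 without control 1.

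Foxa3, a forkhead factor of goblet cells, had 2, 10 and 6 counts in the controls and 23 and 11 in Cre-positive libraries. Its 4.45 CPM in Cre-positive 1 was above all others, and its 1.71 CPM in Cre-positive 2 lay within the control range of 0.479 to 1.85 CPM. The fold change of 2.67 was the highest among the 9 regulators, with a 95% interval of 0.845 to 8.43 (log2 fold change 1.42 ± 0.71; edgeR adjusted p = 0.977), and on the log2 scale it was 0.62 without Cre-positive 1.

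Creb3l1, a membrane-bound factor that supports the secretory pathway and is also expressed by fibroblasts, had 33, 42 and 31 counts in the controls and 103 and 50 in Cre-positive libraries. These were 7.91, 7.78 and 5.05 CPM against 19.9 CPM (16.3 to 24.2) and 7.77 CPM (5.77 to 10.2). As for Atoh1, Cre-positive 1 stood apart and Cre-positive 2 fell among the control mice. For Creb3l1 it lay only just under controls 1 and 2, and with RLE scaling the groups did not overlap. The log2 fold change was 1.0 ± 0.45 (edgeR adjusted p = 0.977), and it was 0.21 without Cre-positive 1. Fibroblast markers (10 of 10 matched, Mfap5 at 0 in at least 1 library) summed to 392 and 365 CPM in Cre-positive 1 and 2 and to 341 to 824 CPM in control mice. The part of fibroblast RNA in the Creb3l1 level was not tested. Creb3l1 lies on chromosome 2 (91982328 to 92024502, minus strand, GRCm38), 53.6 kb from Chrm4, the targeted gene.

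**Figure D4:**
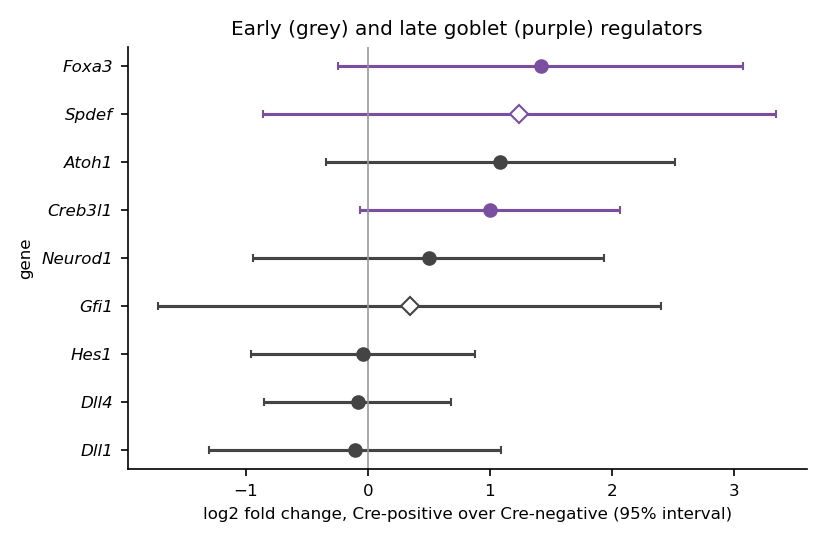
Log2 fold change of each regulator, Cre-positive over Cre-negative, with its 95% interval from edgeR (purple, late goblet regulators; grey, early regulators; open diamonds, genes under the count filter). Every interval includes 0.

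Late goblet regulators were set against early regulators within each library. Spdef, Foxa3 and Creb3l1 together had 35, 58 and 43 counts in controls 1, 2 and 3 and 135 and 72 in Cre-positive 1 and 2. Their summed level was 8.39, 10.7 and 7.01 CPM against 26.1 and 11.2 CPM. Per 1000 epithelial marker counts it was 2.37, 2.89 and 1.79 against 6.99 and 2.35, where Cre-positive 2 lay within the control range. The 6 early regulators had 25.4, 32.8 and 37.8 CPM against 43.5 and 35.1 CPM, so in CPM the early sum of Cre-positive 2 lay within the control range. The mean log2 CPM of the late regulators minus that of the early ones was -1.23, -0.76 and -1.35 in controls 1, 2 and 3 against 0.01 and -0.56 in Cre-positive 1 and 2. The group means of this difference were -1.11 ± 0.32 (SD, n = 3) and -0.28 ± 0.40 (SD, n = 2), a gap of 0.84 on the log2 scale. Late regulators were 1.09 higher and early regulators 0.26 higher in Cre-positive mice on that scale. With Atoh1, Gfi1 and Neurod1 alone as the early regulators the gap was 0.48, as Hes1, Dll1 and Dll4, with log2 fold changes near 0, were then left out. No p is given for this score, because the genes were chosen with results of these data known.

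**Figure D5:**
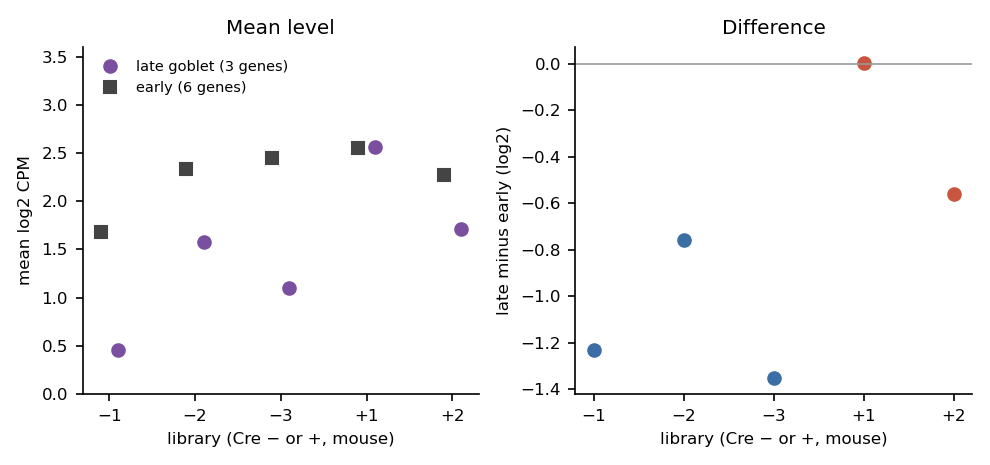
Left, mean log2 CPM of 3 late goblet and 6 early regulators in each library. Right, their difference, which was -1.35 to -0.76 in the controls and -0.56 and 0.01 in Cre-positive libraries.

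Per length of merged exons, Atoh1, Hes1 and Creb3l1 had the highest levels, at 4.21 ± 3.26, 3.85 ± 1.0 and 3.72 ± 2.25 CPM per kb (SD, n = 5). Dll1 followed at 1.90 ± 0.759, Dll4 at 1.59 ± 0.124, Neurod1 at 1.10 ± 0.523 and Foxa3 at 0.930 ± 0.753 CPM per kb. Spdef and Gfi1 were lowest at 0.481 ± 0.307 and 0.319 ± 0.208 CPM per kb. Each gene's range over the 5 libraries overlapped that of the next gene in the order, so no neighbours were separated beyond their spread. Atoh1 led by its mean but was above Hes1 in 1 of 5 libraries only, Cre-positive 1, and Foxa3 was above Spdef in 5 of 5.

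Among 9138 genes with a mean of at least 5 CPM, the pattern of Atoh1 over the 5 libraries was nearest to that of Spink4, a peptide of goblet cell granules. The root mean square difference of the centred log2 CPM values was 0.12, where the median gene stood at 0.89. Spink4 stood at 87.5, 183 and 178 CPM in controls 1, 2 and 3 and at 610 and 142 CPM in Cre-positive 1 and 2, so it too was lowest in control 1 and highest in Cre-positive 1. Arfgef3 (0.15), Fam111a (0.21), Galnt3 (0.22), which starts mucin-type O-glycans, and the histone gene Hist1h3i (0.23) came next. For Spdef the nearest were the cyclin gene Ccnd1 (0.19), Lin9 (0.20), Lypd8 (0.30), Mcf2l (0.31) and Clca3a2 (0.31), with a median gene at 0.98. Spdef rests on at most 11 counts a library, and 5 libraries give many genes a like pattern, so these ranks describe the samples only.

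Of the other Notch pathway genes, none passed the test. Among 9 receptors and ligands listed besides Dll1 and Dll4, 6 were matched and 5 tested, with 0 higher, 0 lower and a median log2 fold change of -0.09. Notch1 and Notch2, the receptors of crypt epithelium, averaged 8.18 ± 1.99 and 28.4 ± 13.3 CPM (SD, n = 3) in the controls and 9.14 ± 5.68 and 27.5 ± 12.0 CPM (SD, n = 2) in the Cre-positive ones. Notch3, a receptor of vascular mural cells, had 9, 10 and 9 counts in the controls and 1 and 3 in Cre-positive libraries (log2 fold change -2.33 ± 0.75; edgeR adjusted p = 0.977). Notch4, an endothelial receptor, averaged 2.82 ± 1.26 and 1.80 ± 0.0875 CPM. The ligand gene Jag1 averaged 6.09 ± 0.798 and 5.68 ± 1.20 CPM, and Jag2 had 2 or 3 counts in every library. Of 26 genes for ligand and receptor processing, 25 were matched and 21 tested, with 0 called and a median of 0.10. Of 20 genes of the nuclear complex and its targets besides Hes1, 17 were matched and 16 tested, with 0 called and a median of -0.10. Rbpj averaged 85.8 ± 18.3 and 90.3 ± 6.98 CPM. The feedback target Nrarp had 0, 17 and 31 counts in the controls and 5 and 10 in Cre-positive libraries, and Heyl had 3, 1 and 1 against 6 and 0. Olfm4, a crypt base gene that Notch turns on, stood at 29.0, 27.1 and 179 CPM in the controls and 95 and 80.1 CPM in Cre-positive libraries, and its highest and lowest libraries were both Cre-negative.

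The other goblet and Paneth factors did not pass the test either, with 13 of 15 listed matched, 0 of 12 tested called and a median log2 fold change of 0.12. Foxa1, the forkhead relative of Foxa3, stood at 17.7, 21.7 and 18.2 CPM in the controls and at 66.8 and 23.2 CPM in Cre-positive libraries (log2 fold change 1.22 ± 0.42; edgeR adjusted p = 0.977), again with its peak in Cre-positive 1. Klf4, a factor of maturing goblet and surface cells, averaged 189 ± 34.9 and 176 ± 67.1 CPM and was lowest in Cre-positive 1 at 129 CPM. Xbp1, which builds secretory capacity, averaged 231 ± 86.8 and 284 ± 22.4 CPM. Sox9, of stem and Paneth cells, averaged 10.8 ± 6.36 and 16.1 ± 3.71 CPM. Bhlha15 averaged 2.40 ± 1.29 and 2.99 ± 0.704 CPM and Elf3 71.1 ± 31.4 and 74.1 ± 15.0 CPM. Creb3l4 had 2 to 8 counts a library. Paneth cell markers (10 of 10 matched, none at 0) summed to 1642, 3598 and 3020 CPM in the controls. In Cre-positive 1 and 2 they summed to 2010 and 2088 CPM, within the control range. All 10 had a negative log2 fold change and 0 were called, while 45.5% of all genes tested had a positive one.

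Transcripts of goblet cell products were far more abundant than those of the regulators. Of 25 products listed, 24 were matched (Retnlb, Tpsg1 and Ccdc60 at 0 in at least 1 library). Of these, 19 were tested, with 0 called and a median log2 fold change of 1.17. At an unadjusted edgeR p under 0.05 there were 8 of 19, against 3.38% of all genes tested. The groups did not overlap for 13 of 19, against 18.0%, and 15 of 19 were highest in Cre-positive 1, against 25.3%. The products summed to 2115, 4027 and 3585 CPM in the controls and to 8174 and 5066 CPM in Cre-positive libraries. In CPM Cre-positive 2 thus lay above every control mouse, as it did for the summed late regulators (11.2 against 7.01 to 10.7 CPM). Per 1000 epithelial marker counts it did not: goblet products had 599, 1084 and 917 counts in the controls, 2185 in Cre-positive 1 and 1063 in Cre-positive 2. Muc2, the gel-forming mucin, had 96.0, 81.4 and 74.5 counts for each Atoh1 count in controls 1, 2 and 3, 98.8 in Cre-positive 1 and 191 in Cre-positive 2. For each count of Spdef, Foxa3 and Creb3l1 together, Muc2 had 38.4, 56.2 and 79.7 counts in the controls and 79.1 and 93.0 in Cre-positive libraries. Cre-positive 2 thus had the most Muc2 per regulator count, with Atoh1, Foxa3 and Creb3l1 within the control range in CPM. Spdef lay above that range, at 1.71 CPM against at most 1.11 CPM. The ratios to the late regulators rest on 72 regulator counts in Cre-positive 2 and 43 in control 3. Their counting error was not computed. Agr2, which folds mucins, stood at 5.75, 12.0 and 14.8 CPM in the controls and 136 and 20.5 CPM in Cre-positive libraries.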

How the data were processed

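Per the labels' protocols, libraries of total RNA were made after removing ribosomal RNA. The authors deposited estimated counts per gene, 1 column per mouse, with no scaling to depth. Partek and the mm10 build are named, per the submitters' processing notes, while versions, the aligner, the gene models and how strand and shared reads were handled are not given there. Counts were rounded to whole numbers, and the counts of all 9 regulators were whole as deposited (within 0.005). The lowest gene total in the table was 10. Columns of other samples and rows without a gene name numbered 0.

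Mice were grouped by the genotype label, 3 Cre-negative (controls) and 2 Cre-positive. The fit used edgeR 4.0.16 under R 4.3.3 with TMM factors, a filterByExpr count minimum of 10, a robust quasi-likelihood model of genotype and Benjamini-Hochberg adjustment over 14352 genes. The filter needs enough counts in 2 libraries, so the Cre-positive libraries alone can carry a gene past it. A standard error is the log2 fold change over the root of F. The biological coefficient of variation was 33.1%. Log2 CPM used a prior count of 2. In simulated data of 13932 genes for this comparison, 1 of 99 genes changed 2-fold and 45 of 99 changed 4-fold were called, beside 11 unchanged genes. The changed genes were drawn from those averaging over 2 CPM, a level that Foxa3, Spdef and Gfi1 did not reach. A median recovered log2 fold change of 1.04 and 1.90 was found for the 2 sizes.

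The regulators and lists were chosen with earlier results of these data known. All 10 regulators are named by rule, the other genes come from fixed pathway lists, and nearest genes are the 5 with the smallest root mean square difference. Gata4 comes from a list, while Slc10a2, Gata6, Dgkz, Dtx1 and Runx1t1 were picked once their values had been seen. Coordinates and exon lengths came from GENCODE M21 (GRCm38, the assembly mm10 denotes), which matched 98.4% of symbols. Promoters are from RefSeq (GRCm38.p6). Alternatives were other scalings, DESeq2 1.42.0, limma-voom (limma 3.58.1), other filters and leaving out each mouse.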

Additional observations from a re-analysis of the deposited data

How the results depend on the processing

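The count of called regulators stayed at 0 under every alternative run: scaling by RLE, upper quartile or totals, DESeq2, limma-voom, non-robust fitting, keeping all genes, a filter of 5 CPM in 2 libraries, an adjusted p of 0.1 and each mouse left out, where a lone Cre-positive mouse was assumed to vary like the others. Over all genes, 0 were called by the main test, 19 by DESeq2 (12 higher, 7 lower) and 0 to 58 with a mouse left out, the 58 without Cre-positive 2. The groups did not overlap for 1 regulator, for 2 with RLE scaling (Spdef and Creb3l1) and for 1 to 7 with a mouse left out. These 7 came without Cre-positive 2 and 4 without Cre-positive 1. A lone Cre-positive mouse need only be highest or lowest to count, so these numbers cannot be set beside the 18.0% of all genes in the full comparison. The share over all genes was not computed for these settings. The late minus early gap of 0.84 was 1.27 with medians over the genes and 0.48 with Atoh1, Gfi1 and Neurod1 alone as early, and 0.55 to 1.12 with a mouse left out. Log2 fold changes with a mouse left out ran from -0.15 to 1.79 for Atoh1, -0.54 to 1.07 for Gfi1, -0.42 to 0.30 for Hes1, -0.92 to 0.45 for Dll1 and -0.17 to 0.068 for Dll4. They kept their sign for Neurod1, Spdef, Foxa3 and Creb3l1. Of the 9 places in the order of levels per length, 5 to 9 held with a mouse left out, an alternative added after seeing the data. No paired analysis was possible because the labels give the groups no shared replicate numbers. Gfi1, Spdef and Foxa3 had 0 to 23 counts a library, which limits what could be detected.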

Other observations

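Some genes on the lists are not described above. Spib, a factor of tuft, M and B cells, had 19, 21 and 17 counts in the controls and 79 and 15 in Cre-positive 1 and 2, and Dtx1, a Notch modulator that B cells also express, had 2, 1 and 3 against 35 and 0. The tuft cell factor Pou2f3 had 10, 20 and 15 counts against 15 and 6. Gata6, a relative of Gata4, stood at 132, 99.3 and 136 CPM in the controls and 95.2 and 126 CPM in Cre-positive libraries, beside the 2 counts of Gata4 in Cre-positive 1. Dtx1 did not pass the filter on low counts and was not tested, and none of the others passed edgeR's test.

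Dgkz is 1 of 3 protein-coding genes between Chrm4 and Creb3l1, with Mdk and Gm9821, and was picked once its values had been seen. It stood at 41.0, 37.4 and 34.1 CPM in the controls and at 24.0 and 29.1 CPM in the Cre-positive mice. The log2 fold change was -0.50 ± 0.23 (edgeR adjusted p = 0.977). All mice carried floxed Chrm4, and a link with the targeted locus was not tested.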
